A study of Rattus norvegicus with 12 samples.

Results

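Dusp1, Dusp2, Dusp4, Dusp5, Dusp6, Spry1, Spry2, Spry4 and Spred1 encode brakes on the mitogen-activated protein kinases (MAPK), and their RNA was followed in rat lungs with and without a form of mechanical ventilation labelled HTV. The genes were taken as a list of 9 known negative regulators, and every probe set whose annotation names 1 of them and no other gene was used. Of the 9 genes, 8 had such a probe set, with 11 of the 31099 probe sets on the array between them. Spred1 was not analysed here. A filter on dim probe sets kept 10 of the 11, so that 7 genes were tested among 10555. The 10 kept probe sets averaged above the filter's intensity of 43.6 in each of the 4 groups.

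Right lungs were profiled on 12 Affymetrix rat expression arrays, 3 in each of 4 groups. SS HTV and SS control lungs came from Dahl salt-sensitive rats, an inbred strain that becomes hypertensive on a salty diet, and BN HTV and BN control lungs came from Brown Norway rats, another inbred strain; the design text calls the strains parents. Rats weighed 250 to 350 g, with no age or sex given. The vessels of all lungs were rinsed with saline before freezing, all arrays carry a label for room air, and the labels give neither the meaning of HTV nor how control rats breathed.

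Growth factors, cytokines and mechanical load activate kinase cascades that end in the MAPKs ERK, JNK and p38. Dual-specificity phosphatases (Dusp) remove the activating phosphates from these kinases, while Sprouty (Spry) and Spred proteins act higher up, between receptor tyrosine kinases, Ras and Raf. Many of these genes are themselves switched on by the pathway, which makes them negative feedback regulators.

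All values are signal intensities per probe set as deposited, and differences are given as log2(intensity + 16) with a standard error (SE) from 1 limma fit over the 12 arrays, n = 3 in each group. The small constant understates changes of dim probe sets. A gene is said to have risen or fallen where the p-value, adjusted by Benjamini-Hochberg over the 18626 tested probe sets, was below 0.05. Because whole lung was measured, fewer cells of a type and less RNA per cell cannot be told apart.

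The lung markers were bright on every array: the surfactant gene Sftpc had a lowest, median and highest intensity of 2919.8, 3899.1 and 4581.3, and the club cell gene Scgb1a1 had 3071, 3879.1 and 4680.6. Of the liver genes on the list, Apoa1 lay between 1.2 and 6.1, Alb between 36.4 and 73, and Ttr between 23 and 80.1. Alb rose in SS HTV lungs by 0.53 (adjusted p = 0.0485), and 0 liver genes rose there without SS control 3. The library labelled SS control 3 stood apart. It lay at 39.5 on principal component 3, against -13.2 to 14.3 for the other arrays. Its beta-actin 5-prime to 3-prime ratio was the lowest of the SS arrays, a log2 value of -1.41, against -1.02 to -0.23 for the other SS arrays. The BN arrays ran from -1.47 to -0.88, a range that includes this value. At 36 probe sets where the other SS arrays lay over 1.5 log2 units from all BN arrays, SS control 3 was past the midpoint towards BN at 13, and in the same count for each other array this number was 0. Where leaving this array out ended or added a call, or moved a called value by over 1.5 times, the value without it stands beside the result. The reason for its deviation was not tested.

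The promoter windows of Dusp1 and Dusp5, the pair among the 9 listed genes that rose in both strains, are shown first. They are shown because their letters hold short motifs of transcription factors known to act in early gene responses. The windows run from 250 bases before to 50 bases after the annotated start, and both are from RefSeq on the rat assembly GRCr8, on the plus strand. Dusp1 lies at chr10:17184603-17184902 and Dusp5 at chr1:262543524-262543823. Capitals mark matches on either strand to the cAMP response element TGACGTCA, to its shorter form TGACG, which the full element contains on both strands, and to the CArG box bound by serum response factor.
Dusp1: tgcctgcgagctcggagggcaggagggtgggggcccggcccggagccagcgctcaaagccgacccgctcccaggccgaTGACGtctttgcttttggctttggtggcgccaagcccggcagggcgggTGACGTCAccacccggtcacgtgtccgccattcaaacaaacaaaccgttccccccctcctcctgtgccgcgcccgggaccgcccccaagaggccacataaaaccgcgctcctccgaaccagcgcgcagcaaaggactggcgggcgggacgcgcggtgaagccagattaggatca
Dusp5: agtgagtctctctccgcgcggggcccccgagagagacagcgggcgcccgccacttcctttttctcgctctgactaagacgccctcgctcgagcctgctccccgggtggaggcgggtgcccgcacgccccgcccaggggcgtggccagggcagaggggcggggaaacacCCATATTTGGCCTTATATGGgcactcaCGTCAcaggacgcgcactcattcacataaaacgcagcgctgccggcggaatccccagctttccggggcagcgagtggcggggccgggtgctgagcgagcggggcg
The Dusp1 window held 1 full element, at bases -124 to -117 from the start, and a further short form at bases -172 to -168. The Dusp5 window held 2 adjoining CArG boxes, at bases -82 to -73 and -72 to -63, and 1 short form at bases -55 to -51. Of 33465 rat promoter windows of this length, 1.83% held the full element, 21.2% the short form and 1.64% a CArG box. Windows were found for 8 of the 9 genes, Dusp4 being the exception, and Spry2 had 2 of them. The short form also occurred in Dusp2 and in 1 window of Spry2. The ETS motif CCGGAA, on either strand, was in the windows of Dusp5, Spry2 and Spry4 and in 15% of all windows, whereas the AP-1 motif TGANTCA was in none of the members' windows and in 7.33% of all. These matches describe letters only.

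HTV lungs had more RNA of Dusp1 and Dusp5 in both strains, of Dusp2 in BN, and of Spry4 in SS, while Spry2 RNA was lower in SS HTV lungs. In SS lungs 3 of the 7 tested genes rose, 1 fell and 3 did not pass, against 3.90% of all tested probe sets higher and 4.16% lower. In BN lungs 3 rose, 0 fell and 4 did not pass, against 3.00% higher and 2.86% lower. The median difference of the 7 genes was 0.38 in SS and 0.39 in BN, and that of all tested genes was -0.01 and -0.03. Without SS control 3 the SS median of the 7 genes was 0.24 and the count in SS lungs was 1, Spry2, because Dusp1, Dusp5 and Spry4 then missed the threshold with differences of the same sign. The SS count was also 1 without SS HTV 1, and 2 without SS control 2 or SS HTV 3. The BN count was 0 without BN HTV 2, and 1 without BN control 1, BN control 2 or BN HTV 1.

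**Figure D1:**
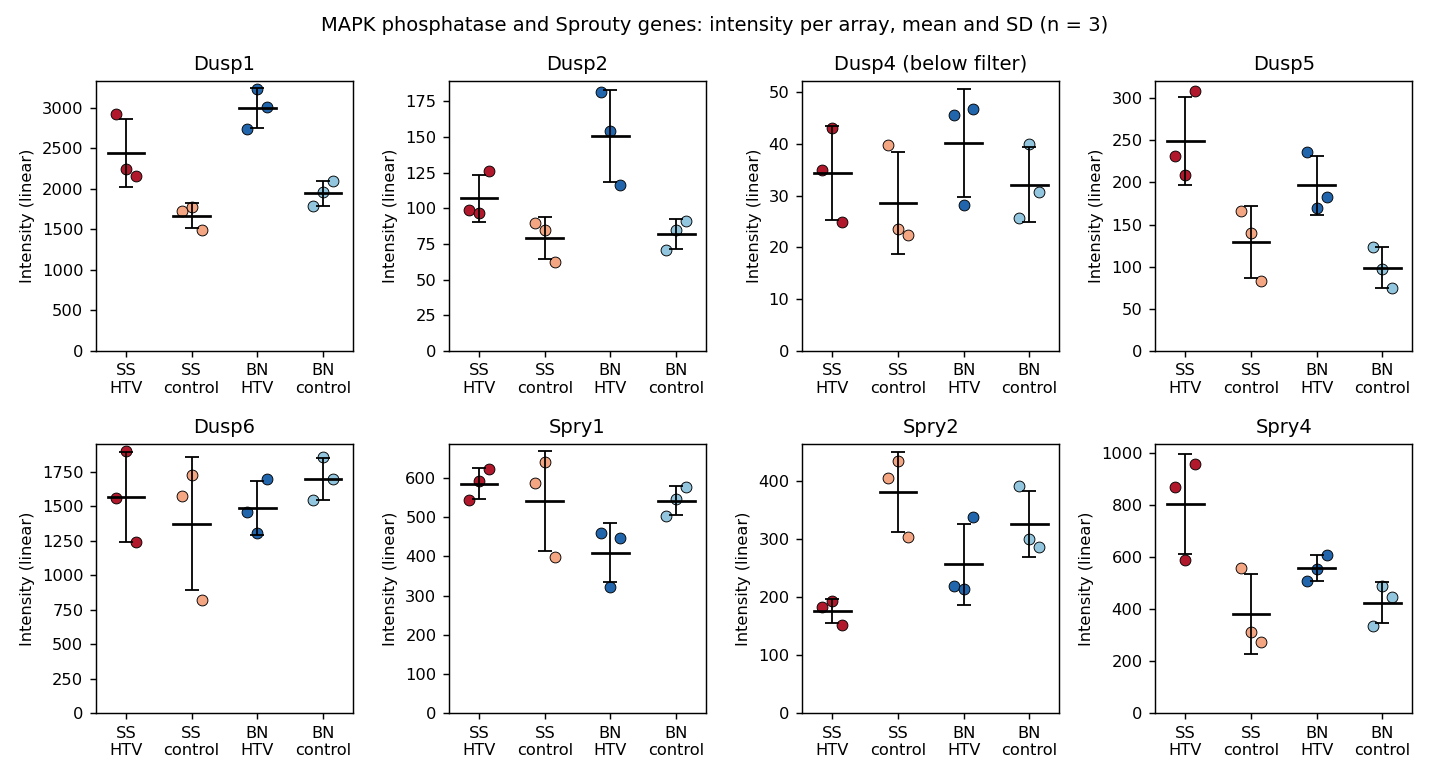
Intensity (linear axis from 0) of the 8 genes on each array, for SS HTV, SS control, BN HTV and BN control; points are arrays, bars the mean and whiskers the SD of 3 arrays. Dusp1 and Dusp5 are higher in HTV than in control arrays of both strains without overlap, and Spry2 is lower in SS HTV (152.3 to 193.1) than in SS control arrays (304 to 433.9).

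Dusp1 (MKP-1) is a nuclear phosphatase of p38, JNK and ERK that is induced within minutes of stress and limits inflammatory gene expression. Its brighter probe set, 1368146_at, had intensities of 2919.3, 2239.2 and 2151.1 in SS HTV lungs, against 1729.5, 1773.1 and 1488 in SS control lungs. In BN HTV lungs it had 2736, 3233.6 and 3001.9, against 1783.9, 1958.8 and 2089.2 in BN control lungs. Every HTV array was above every control array of its strain. The gene rose by 0.54 ± 0.12 in SS (adjusted p = 0.0189) and by 0.62 ± 0.12 in BN (adjusted p = 0.0105), folds of 1.45 and 1.53 on this scale. In SS the call was lost without SS control 3 (0.46, adjusted p = 0.0553), without SS HTV 1 (0.40, adjusted p = 0.0765) and with only the SS arrays fitted (0.54, adjusted p = 0.0687). In BN it was lost without BN control 1 (adjusted p = 0.0528) or BN HTV 2 (adjusted p = 0.0505).

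The second Dusp1 probe set, 1368147_at, showed a larger difference. It had 717.8, 652.2 and 972.8 in SS HTV lungs, against 274.2, 372.2 and 298.2 in SS control lungs. The BN HTV values were 750.4, 492.6 and 769.1, against 177.4, 129.6 and 273.5 in BN control lungs. The groups were again apart, and the lowest HTV array lay well above the highest control array of its strain. The rises were 1.26 ± 0.24 in SS (adjusted p = 0.0069) and 1.74 ± 0.24 in BN (adjusted p = 0.000995). These calls held in all 22 alternative settings in each strain, with an adjusted p of at most 0.0379 in SS and 0.00815 in BN. When the probe sets of a gene were averaged, the Dusp1 rise was 0.90 in SS and 1.18 in BN.

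**Figure D2:**
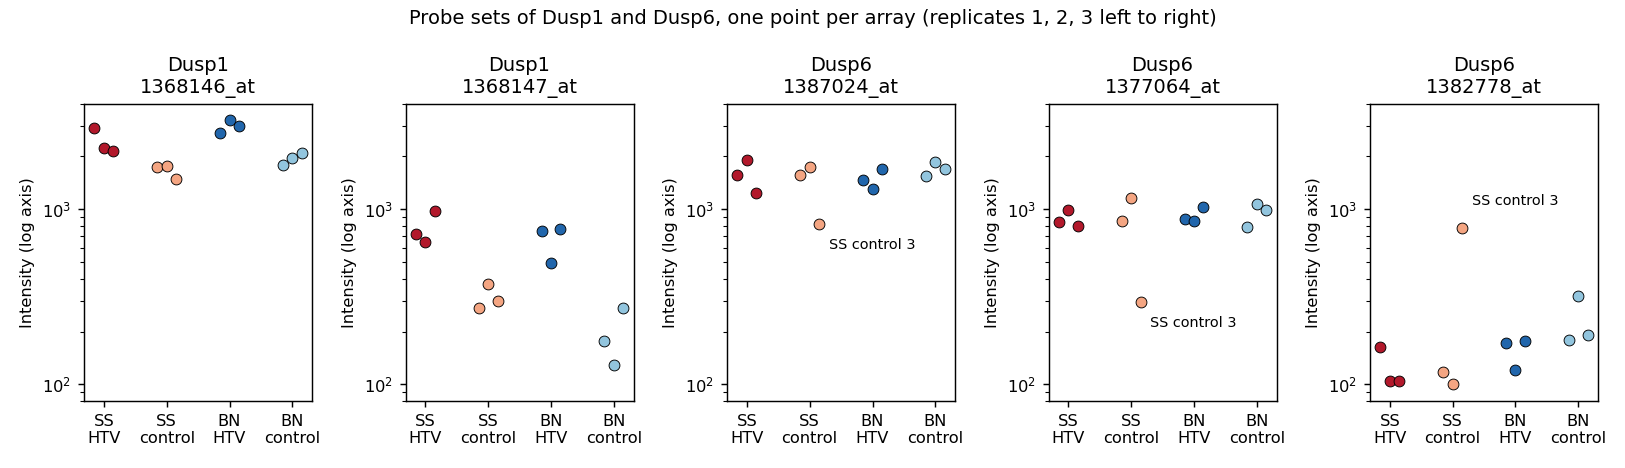
Intensity (log axis) of the probe sets of Dusp1 and Dusp6 by group, each point 1 array with replicates 1, 2 and 3 from left to right. Both Dusp1 probe sets are higher in HTV arrays, and at Dusp6 the array SS control 3 is the lowest at 1387024_at (823) and 1377064_at (294.6) and the highest at 1382778_at (785.5).

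Dusp5 is a nuclear phosphatase that acts on ERK and holds it in the nucleus. It had intensities of 231.3, 208.9 and 308.8 in SS HTV lungs, against 166.3, 140 and 82.6 in SS control lungs. On the BN HTV arrays it had 236.5, 170.1 and 183.1, against 123.8, 97.5 and 74.9 in BN control lungs. No HTV array fell within the control range of its strain. The rise was 0.90 ± 0.23 in SS (adjusted p = 0.0306) and 0.90 ± 0.23 in BN (adjusted p = 0.0358), and the strains' rises differed by -0.00 (95% interval -0.70 to 0.69). The SS rise was 0.64 without SS control 3 (adjusted p = 0.0925), which was the lowest SS control at 82.6, and it had an adjusted p of 0.0686 with only the SS arrays fitted. The calls were also lost without a filter on dim probe sets (adjusted p = 0.0543 in SS and 0.0665 in BN) and on leaving out any of several other arrays (adjusted p up to 0.120 in SS and 0.142 in BN).

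Dusp2 (PAC-1) is a nuclear phosphatase best known from activated immune cells. It had 98.5, 96.7 and 126 in SS HTV lungs, against 89.8, 84.9 and 62.3 in SS control lungs. BN HTV lungs gave 181.4, 154.3 and 116.6, against 70.5, 84.5 and 90.9 in BN control lungs. The HTV arrays were above the controls in both strains, by a narrow margin in SS. Dusp2 rose by 0.75 ± 0.17 in BN (adjusted p = 0.0218), and the SS difference of 0.38 ± 0.17 did not pass (adjusted p = 0.193). The SS difference was 0.24 without SS control 3 (adjusted p = 0.458), and the BN call was lost without BN control 1, BN control 2, BN HTV 1 or BN HTV 2 (adjusted p = 0.0614 to 0.102). The effects in the strains were not shown to differ (-0.38, 95% interval -0.90 to 0.15, adjusted p = 0.676).

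Markers of neutrophils were also higher in HTV lungs. All 7 markers on the list were tested, 5 rose in SS and 6 in BN, and none was at 0. Of all tested probe sets 3.90% were higher in SS and 3.00% in BN. The filter uses the mean over all arrays, so markers raised by HTV were more easily kept. Mmp9, for instance, had a median intensity of 19.25, below the filter's 43.6, and a highest of 502.6. Their summed intensity ran from 5364 to 8106 in SS HTV lungs, against 1401 to 2349 in SS control lungs, and from 2859 to 8504 in BN HTV lungs, against 922 to 1615 in BN control lungs. BN HTV 3 had the lowest neutrophil sum of the HTV arrays, 2859, and also the lowest Dusp2 of the BN HTV lungs, 116.6. Its Dusp1, 3001.9, was between those of the other BN HTV arrays. Among SS HTV lungs the highest sum, 8106 in SS HTV 1, stood beside a Dusp2 of 98.5. The highest Dusp2 there, 126 in SS HTV 3, stood beside a sum of 6609. The part of these cells in the differences was not tested.

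Dusp4 (MKP-2), a nuclear phosphatase of ERK and JNK, was dim and did not pass the filter. It had 35, 43.1 and 24.9 in SS HTV lungs, against 39.9, 23.6 and 22.3 in SS control lungs. The values of BN HTV lungs were 45.7, 28.2 and 46.7, against 25.7, 40 and 30.7 in BN control lungs. The groups overlapped in both strains. In a fit without the filter its differences were 0.18 in SS (adjusted p = 0.676) and 0.22 in BN (adjusted p = 0.694).

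Dusp6 (MKP-3) is the cytoplasmic phosphatase specific for ERK and a widely used readout of fibroblast growth factor signalling. At its brightest probe set, 1387024_at, it had 1558, 1899.8 and 1244 in SS HTV lungs, against 1573.4, 1729.5 and 823 in SS control lungs. In BN HTV lungs it had 1458, 1307.4 and 1698.6, against 1548.3, 1855.5 and 1695 in BN control lungs. The groups overlapped, and neither the SS difference of 0.24 ± 0.23 (95% interval -0.26 to 0.73, adjusted p = 0.549) nor the BN difference of -0.19 ± 0.23 (95% interval -0.69 to 0.30, adjusted p = 0.706) passed. Without SS control 3 the SS difference was -0.09.

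The other probe sets of Dusp6 did not pass either. Probe set 1377064_at had 843, 985.5 and 799.8 in SS HTV lungs, against 857.4, 1164.8 and 294.6 in SS control lungs, and lay between 792.9 and 1074.3 on all BN arrays. Probe set 1382778_at had 164, 105.2 and 104.1 in SS HTV lungs, against 117, 101.2 and 785.5 in SS control lungs. SS control 3 was thus far below its group at 1 of these probe sets and far above it at the other, and without it the SS differences were -0.19 and 0.14, against 0.38 and -0.75 with it. In BN, 1382778_at had 171.5, 121.1 and 177.4 in HTV lungs, against 178.1, 319.2 and 190.9 in control lungs. These BN groups did not overlap, and the difference of -0.48 ± 0.53 did not pass (adjusted p = 0.686).

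Spry4, a Sprouty protein that blocks activation of Raf downstream of growth factor receptors, had 870.1, 590.1 and 959.1 in SS HTV lungs, against 560.7, 313.9 and 275.3 in SS control lungs. The BN HTV values were 509.9, 556.1 and 610.9, against 337.9, 490.8 and 448.1 in BN control lungs. The HTV arrays were higher in both strains without overlap, with a wider gap between group means in SS. The gene rose by 1.08 ± 0.24 in SS (adjusted p = 0.0151), a fold of 2.11, and the BN difference of 0.39 ± 0.24 did not pass (adjusted p = 0.389). Without SS control 3 the SS difference was 0.89 (adjusted p = 0.0529). The call was also lost without SS control 2, SS HTV 1 or SS HTV 3 (adjusted p up to 0.0691) and with only the SS arrays fitted (adjusted p = 0.056).

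Spry2, which is known from airway and alveolar development as a restraint on fibroblast growth factor signalling, went the other way. It had 183.2, 193.1 and 152.3 in SS HTV lungs, against 405.4, 433.9 and 304 in SS control lungs. On the BN HTV arrays it had 218.9, 214.7 and 337.5, against 391.6, 299.7 and 287.3 in BN control lungs. The SS groups were well apart, and in BN the array BN HTV 3 lay inside the control range. Spry2 fell by 1.04 on the log2 scale in SS (SE 0.18, adjusted p = 0.0046), a fold of 0.487, and this call held in all 23 alternative settings (adjusted p at most 0.0274). It was -1.19 without SS control 3. The BN difference of -0.34 ± 0.18 did not pass (adjusted p = 0.334). It passed in 1 of 23 alternative settings, at -0.54 (adjusted p = 0.0389) with SS control 3 and BN HTV 3 both left out. That setting was added after the data were seen and removes the BN HTV array that lay inside the control range, so no BN fall is read from it.

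Spry1, a family member that limits signalling by the Ret and fibroblast growth factor receptors in development, had 543.3, 590.6 and 621.1 in SS HTV lungs, against 585.9, 640.5 and 397 in SS control lungs. BN HTV lungs gave 458.5, 322.9 and 446.6, against 503.1, 545.9 and 576 in BN control lungs. The SS groups overlapped, while all BN HTV arrays were below all BN controls. Neither the SS difference of 0.14 ± 0.17 (adjusted p = 0.645) nor the BN difference of -0.40 ± 0.17 (adjusted p = 0.193) passed, and without SS control 3 the SS difference was -0.07.

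HTV arrays did not overlap with control arrays for 5 of the 7 genes in SS, Dusp1, Dusp2, Dusp5 and Spry4 being higher and Spry2 lower, and for 5 of 7 in BN, the same phosphatases and Spry4 being higher and Spry1 lower. Over all tested genes 30.7% did not overlap in SS and 26.6% in BN. Endothelial markers, of which 5 of 6 were tested, had sums of 4521 to 5701 in SS HTV, against 5152 to 6074 in SS control lungs, and 6251 to 6825 in BN HTV, against 7237 to 8121 in BN control lungs. The sums overlapped in SS and were lower in BN HTV lungs. None was at 0, and the 1 that fell in each strain was Sox18, a transcription factor of vessel development, at -1.71 in SS and -2.52 in BN. Over all tested probe sets 4.16% were lower in SS and 2.86% in BN. In BN the median of the 5 markers was -0.09, and Tek, Vwf and Pecam1 were at -0.01, -0.09 and 0.14. Kdr, the brightest of the markers, was at -0.35 in BN and did not pass (adjusted p = 0.107). Markers of T and NK cells, of which 5 of 6 were tested, had sums of 598 to 620 in SS HTV, against 789 to 1118 in SS control lungs, and 427 to 543 in BN HTV, against 612 to 663 in BN control lungs. These sums were lower in HTV lungs of both strains without overlap. The granule protease Gzma and the receptor Klrb1a fell in SS, at -1.19 and -0.94, Klrb1a fell in BN, at -0.69, and no marker was at 0. The T cell receptor genes Cd3g and Cd3e did not pass, at -0.13 and 0.04 in SS and -0.20 and -0.30 in BN. Nkg7, the other tested marker, did not pass either, at -0.63 in SS and -0.37 in BN. Without SS control 3, Nkg7 fell in SS, at -0.87 (adjusted p = 0.0193), and 3 of the 5 markers fell there. Whether either cell type bears on the regulators was not tested.

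**Figure D3:**
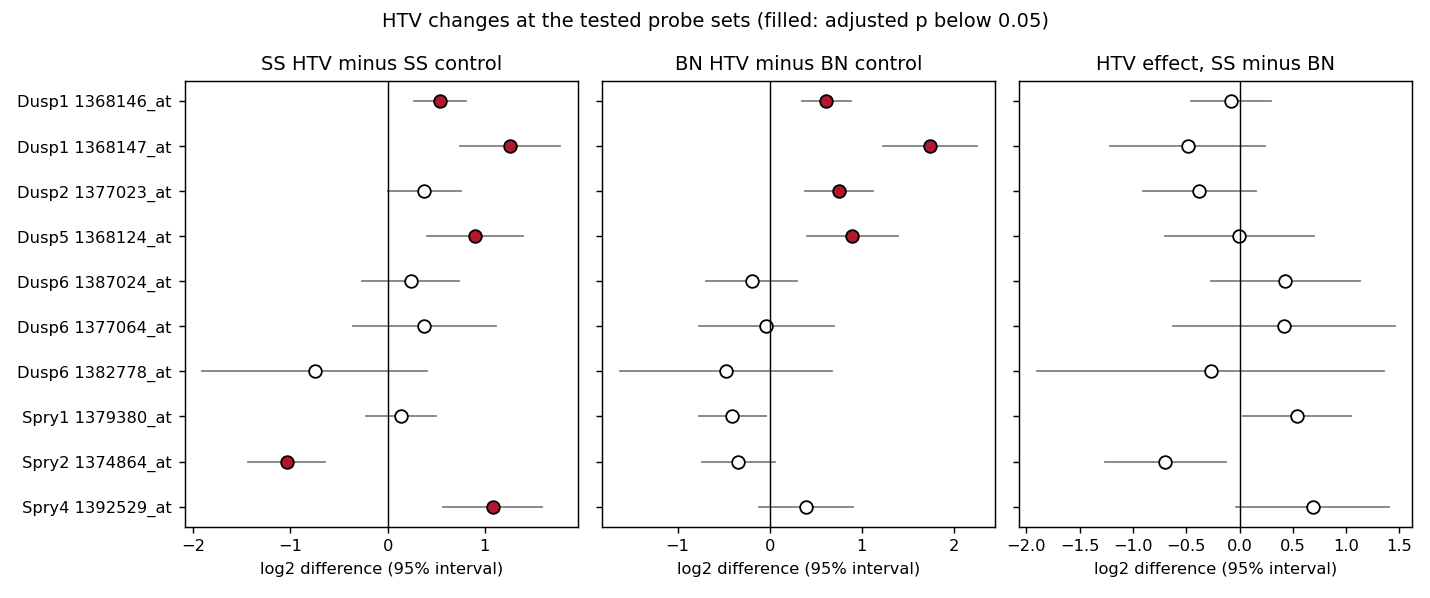
Log2 differences (points) with 95% intervals (lines) for the 10 tested probe sets: SS HTV minus SS control, BN HTV minus BN control, and the difference between these. Filled points passed the test; the intervals of Spry2 in the right panel (-1.26 to -0.13) and of Spry1 (0.03 to 1.05) leave out 0, and neither passed after adjustment.

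Whether HTV acted differently in the strains was tested as the SS effect minus the BN effect. None of the 7 genes passed, and over all tested probe sets limma called 0, or 0%, with 1547 at an unadjusted p below 0.05. At the representative probe sets the Sprouty genes had the widest gaps. The difference was -0.70 ± 0.26 for Spry2 (95% interval -1.26 to -0.13, unadjusted p = 0.0193, adjusted p = 0.576), 0.54 ± 0.24 for Spry1 (95% interval 0.03 to 1.05, unadjusted p = 0.0392, adjusted p = 0.587) and 0.69 ± 0.33 for Spry4 (95% interval -0.03 to 1.41, adjusted p = 0.610). Without SS control 3 the differences were -0.84 for Spry2, 0.49 for Spry4 and 0.34 for Spry1. That of Dusp2 was then -0.51, so the Sprouty genes no longer had the widest gaps. With all arrays the phosphatase differences were -0.08 for Dusp1 (95% interval -0.46 to 0.30) and -0.38 for Dusp2 (95% interval -0.90 to 0.15). They were -0.00 for Dusp5 (95% interval -0.70 to 0.69) and 0.43 for Dusp6 (95% interval -0.27 to 1.13). The Dusp6 one was 0.10 without SS control 3 (adjusted p = 0.949).

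Between the strains, 0 of the 7 genes passed in control lungs, where 12.3% of all tested probe sets did, and 0 of 7 passed in HTV lungs, where 8.37% did. In control lungs Dusp1 was the only tested gene whose arrays did not overlap, against 32.7% of all genes, and its probe sets disagreed. Probe set 1368146_at was lower in SS control than in BN control lungs, at 1664 ± 154 and 1944 ± 153 (SD), a difference of -0.22 (adjusted p = 0.246). Probe set 1368147_at was higher in SS control lungs, at 315 ± 51.1 and 194 ± 73.3 in BN control lungs, a difference of 0.71 (adjusted p = 0.0695). No direction for Dusp1 between the strains can therefore be given.

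In HTV lungs 2 of the 7 genes did not overlap between strains, against 28.3% of all genes. Spry1 was higher in SS HTV lungs, 585 ± 39.2, than in BN HTV lungs, 409 ± 75.1 (SD), by 0.51 ± 0.17 (adjusted p = 0.0776). Spry2 was lower in SS HTV lungs, 176 ± 21.3, than in BN HTV lungs, 257 ± 69.7, by a difference of -0.48 ± 0.18 (adjusted p = 0.131). The Spry1 difference passed when SS control 3, which is in neither group but adds to the shared spread, was left out (adjusted p = 0.0195). At the dimmest Dusp6 probe set, 1382778_at, the difference between SS control and BN control lungs was -0.93 without that array (adjusted p = 0.0314), against -0.04 with it.

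Of 10 other tested genes of the Dusp, Spry and Spred families, from a list of 14, Dusp9 and Dusp10 rose in both strains and 8 did not pass. Dusp9 (MKP-4), an ERK phosphatase known from placenta and metabolic tissues, had 217, 230.8 and 253.2 in SS HTV lungs, against 30.1, 39.6 and 33.9 in SS control lungs, and 121.1, 97.4 and 87.8 in BN HTV lungs, against 15.4, 16.2 and 27.1 in BN control lungs. The HTV arrays were far above the controls in both strains. It rose by 2.31 ± 0.16 in SS (adjusted p = 6.11e-06) and 1.74 ± 0.16 in BN (adjusted p = 3.84e-05). Its controls lay below the filter's intensity, so it was tested because of its HTV arrays. Dusp10 (MKP-5), a phosphatase of JNK and p38, had 116, 132.6 and 137.2 in SS HTV lungs, against 55.8, 52.6 and 45.2 in SS control lungs, and rose by 1.11 in SS (adjusted p = 0.000876) and 0.75 in BN (adjusted p = 0.0117). Dusp9 was also higher in SS than in BN lungs, by 1.09 between HTV lungs (adjusted p = 0.0011) and by 0.52 between control lungs (adjusted p = 0.0489, and 0.0755 without SS control 3).

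Most of the kinases and adaptors that these genes restrain did not pass, as was the case for most tested probe sets. For this list and the other lists, the shares over all tested probe sets were 3.90% higher and 4.16% lower in SS. In BN these shares were 3.00% and 2.86%. Of 16 tested genes of the cascade from Ras to ERK, 2 rose and 1 fell in SS, and 1 rose and 0 fell in BN. Map3k8 (Tpl2), a kinase that activates the ERK pathway downstream of inflammatory receptors, had 420.2, 271.8 and 416.3 in SS HTV lungs, against 71.2, 81.7 and 74.5 in SS control lungs, and rose by 2.05 ± 0.19 in SS and 2.22 ± 0.19 in BN (adjusted p = 5.69e-05 and 2.91e-05). Ksr1, a scaffold for Raf, MEK and ERK, rose by 0.71 in SS (adjusted p = 0.0264), with 0.11 in BN (adjusted p = 0.785), and its other probe set was at 0.54 in SS (adjusted p = 0.0222) and 0.40 in BN (adjusted p = 0.0961). Rps6ka3 (Rsk2), a kinase that ERK activates, fell by 0.57 in SS (adjusted p = 0.0402), while its other probe set was at -0.02. Without SS control 3 neither representative call held, at 0.67 for Ksr1 (adjusted p = 0.0712) and -0.36 for Rps6ka3 (adjusted p = 0.093). At the representative probe sets this left Map3k8 as the 1 gene of the cascade that passed in SS. The other Ksr1 probe set still passed in SS without that array, at 0.54 (adjusted p = 0.0461). Of 10 tested genes of the JNK and p38 branch, 1 rose and 1 fell in SS, and 0 passed in BN. These were Mapkapk2, the kinase downstream of p38, at 0.54 (adjusted p = 0.0163), and Map3k1, a kinase upstream of JNK, at -0.45 (adjusted p = 0.016). The probe sets of Map3k1 differed in which strain passed: the representative was at -0.35 in BN (adjusted p = 0.0582), and the other was at -0.33 in SS (adjusted p = 0.0895) and -0.53 in BN (adjusted p = 0.0144). The counts in this branch without SS control 3 were 2 rising and 1 falling in each strain. Map2k3, a kinase that activates p38, then rose by 0.60 in SS and 0.49 in BN (adjusted p = 0.0419 and 0.0469), Mapkapk3 rose by 0.47 in BN (adjusted p = 0.0491), and Map3k1 fell in BN (adjusted p = 0.0408).

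Since HTV arrays count towards the mean that the filter uses, genes raised by HTV were more easily kept in these lists. Of 23 tested early genes known to be induced downstream of ERK, 11 rose and 1 fell in SS, and 13 rose and 0 fell in BN, with medians of 0.63 and 0.69. Without SS control 3, 9 rose and 1 fell in SS, with a median of 0.58, and Jun and Myc no longer passed there. The transcription factor Fos had 615.2, 485.6 and 674.9 in SS HTV lungs, against 227.4, 222.8 and 221.7 in SS control lungs, and 862, 671.8 and 877.1 in BN HTV lungs, against 190.5, 220 and 181.4 in BN control lungs. Fos rose by 1.33 ± 0.14 in SS and 1.94 ± 0.14 in BN (adjusted p = 0.000108 and 7.13e-06). Errfi1 (Mig6), a feedback inhibitor of the epidermal growth factor receptor, rose by 1.74 and 1.62, Ier3 by 1.13 and 1.58, and Ier2 by 0.63 and 1.55, all in SS and BN in that order. The gene that fell in SS was Etv5, an ETS factor known to respond to fibroblast growth factor signalling, at -0.59 (adjusted p = 0.0222); it was picked out after its value was seen, and its other probe set was at 0.35 (adjusted p = 0.364). Of 16 growth factor receptors, 2 rose in SS and 1 in BN. The vascular endothelial growth factor receptor Flt1 rose by 0.77 in SS and 1.23 in BN at its representative probe set, and its further probe sets disagreed, 1 passing at 1.08 and 1.04 and 1 at 0.03 and -0.37 not passing. Igf1r, the receptor for insulin-like growth factor, rose by 0.46 in SS (adjusted p = 0.0415), with its other probe set at 0.24 (adjusted p = 0.423). The Igf1r call was lost without SS control 3 (adjusted p = 0.0859), and the stem cell factor receptor Kit then fell in SS, at -1.15 (adjusted p = 0.0314), against -0.80 with that array (adjusted p = 0.128).

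**Figure D4:**
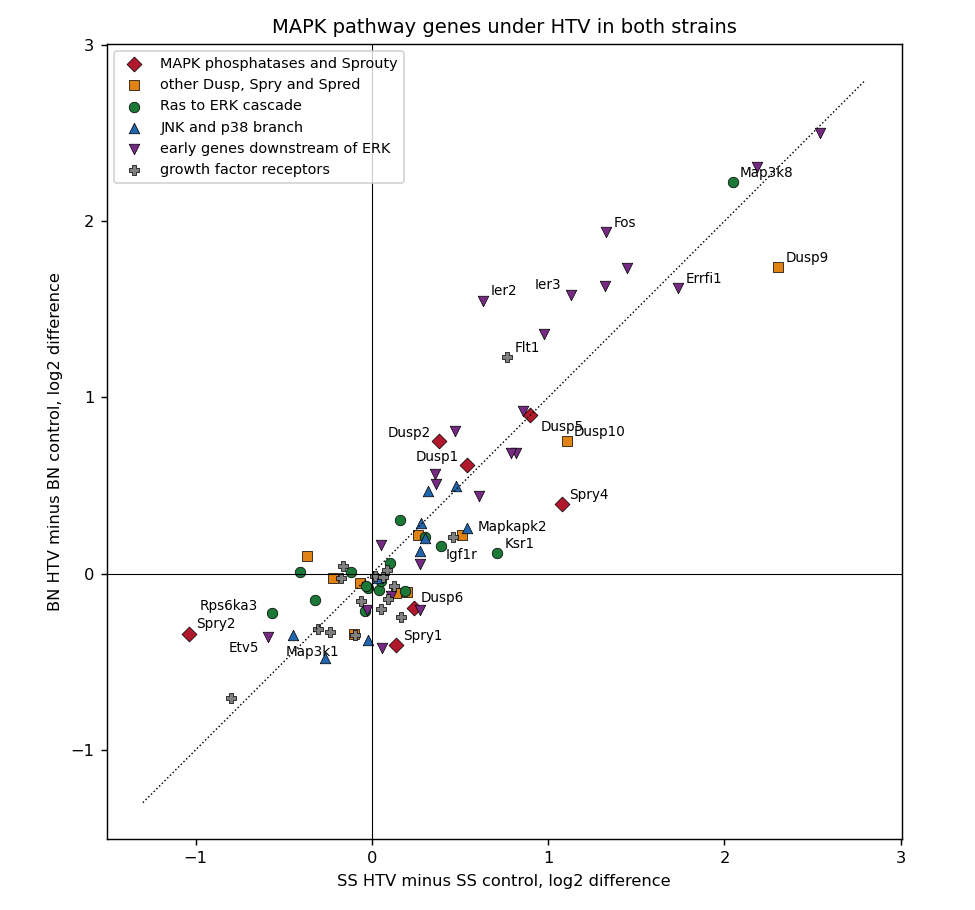
Log2 difference of SS HTV minus SS control (horizontal) against BN HTV minus BN control (vertical) for the tested genes of 6 lists, each point 1 gene at its representative probe set and the dotted line marking equal differences. Spry4 (1.08 and 0.39) lies below the line, and Spry2 (-1.04 and -0.34) above it; Dusp9 (2.31 and 1.74), Map3k8 and Fos lie further out than the representative probe sets of the 7 regulators.

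The regulators varied among themselves. Over the 12 arrays, which share the 4 group means and the scaling of each array, the log2 levels of Dusp1 and Dusp2 correlated at r = 0.79, Dusp5 and Spry4 at 0.76, and Spry2 and Spry4 at -0.72. After group means were taken away, Dusp1 and Dusp2 were at 0.06 and Spry2 and Spry4 at -0.00, whereas Dusp6 and Spry1 were at 0.74. Without SS control 3 the first 3 pairs were at 0.73, 0.69 and -0.78 over 11 arrays, and after group means were taken away Dusp1 and Dusp2 were at -0.20, Spry2 and Spry4 at -0.31 and Dusp6 and Spry1 at 0.33. SS control 3 had the lowest SS control value of Dusp1 (1368146_at), Dusp2, Dusp5, Dusp6 (1387024_at), Spry1, Spry2 and Spry4.

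Among 10548 other genes, those with patterns most like each regulator over the 12 arrays were taken by Pearson's r, as a description. For Dusp1 they were Rhob (0.97), Proser2 (0.95) and Cebpb (0.95). For Dusp2 they were Rassf1 (0.95), Ncoa7 (0.94) and Fosb (0.93), and for Dusp5 Ackr1 (0.96), Fyn (0.94) and Gpr4 (0.92). For Spry4 they were Slc25a10 (0.92), Fam222a (0.90) and Ube2f (0.90), and for Spry2 Cant1 (0.93), Cxcr4 (0.92) and Ctcf (0.92). Rhob and Cebpb rose in both strains, by 0.85 and 1.19 in SS and by 0.95 and 1.20 in BN. Cxcr4 fell in both, at -1.11 in SS and -0.84 in BN (adjusted p = 0.00274 and 0.0156).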

How the data were processed

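Intensities per probe set were deposited by the authors as a linear table; the submitters' processing notes name MAS5, and give neither version nor settings. The mean between the 2nd and 98th percentile was 149.4 to 149.8 on every array, so the deposited intensity values were treated as already scaled. No detection calls were used, and how far a value lies above background is unknown. Of 31099 probe sets 57 controls were left out; platform annotation named 1 gene for 20826, several for 436 and none for 9780.

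Tests used log2(intensity + 16). Probe sets whose mean intensity reached the 40th percentile (43.6) were kept. Means of the 4 groups were fitted over the 12 arrays in limma 3.58.1 under R 4.3.3 (lmFit and trended eBayes on 8 residual degrees of freedom). The Benjamini-Hochberg adjustment ran over 18626 probe sets within each of 5 comparisons. The fit was tested on simulated data. A gene is represented by its kept probe set of highest mean. Named are all members, up to 4 genes per pathway list with the smallest adjusted p, and the 3 most alike genes per member that passed under HTV; other names were chosen after values were seen. Members and lists were chosen with earlier results of these data known, and the motifs with the promoter sequences in view. Titles give each array its own code and share no replicate numbers between groups; replicates were numbered in accession order, and p-values cover only the spread among the arrays of a group, which may be partly technical. Alternatives were pseudocounts of 1 and 64, no filter or the 60th percentile, quantile normalization, median centring, no trend, array weights, only the arrays compared, averaged probe sets and each array left out. The fit without both SS control 3 and BN HTV 3, and the pathway genes and correlations without SS control 3, were added after the data were seen, as was the check of strain-separating probe sets.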

Additional observations from a re-analysis of the deposited data

How the results depend on the processing

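The counts of tested regulators past the threshold depended on single arrays. In SS HTV lungs against SS control lungs the count of 4 was 1 to 4 with an array left out, 1 with only the arrays compared and 1 with SS control 3 and BN HTV 3 both left out. For BN HTV against BN control lungs the count of 3 was 0 to 3 with an array left out. Between strains, array weights called 1 gene in control lungs and 1 in HTV lungs; in HTV lungs it was 2 with both arrays left out and 0 to 1 with 1 array left out. Over all probe sets, the SS HTV count of 1501 was 816 with only the arrays compared and 639 to 1490 with an array left out. The BN HTV count of 1091 was 1667 with array weights and 542 to 1463 with an array left out. The count between strains of 2296 in control lungs was 4138 with array weights, 1479 with only the arrays compared and 758 to 2323 with an array left out, and that of 1559 in HTV lungs was 699 to 2216. The arrays that lowered these counts by over 1.5 times were SS control 2 (905), SS control 3 (999), SS HTV 1 (639) and SS HTV 3 (682) in SS, and all BN arrays but BN HTV 3 in BN (542 to 625). Between strains they were SS control 2 (1150), BN control 2 (758) and BN control 3 (1354) in control lungs, and SS HTV 2 (699), SS HTV 3 (782), BN HTV 1 (1001) and BN HTV 2 (910) in HTV lungs. The test of differing HTV effects called 0 to 1, the 1 without SS control 2. With median centring the share of higher calls was 36.5%, against 48.4% before, in SS HTV lungs, 61%, against 51.1%, in BN HTV lungs, and 68%, against 47.9%, between strains in control lungs; it changed no HTV call of a member. The Spry2 fall in SS and the rises at the Dusp1 probe set 1368147_at kept their calls in every setting run, and the calls of Dusp5 and Spry4 were the ones most often lost. Only the arrays compared gave adjusted p of 0.0687 for Dusp1, 0.0686 for Dusp5 and 0.056 for Spry4 in SS. No direction of a called result reversed. No paired analysis was possible because the groups share no replicate numbers. With 3 arrays per group, changes near the SE given could not be resolved. Some changes well above the SE also missed the threshold, such as Spry1 between HTV lungs, at 0.51 ± 0.17 (adjusted p = 0.0776). Dusp4 did not pass the filter on dim probe sets.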
